A study of Saccharomyces cerevisiae with 9 samples.

Results

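The S5A mutant of budding yeast was profiled on 3 of the 9 arrays of the series, all of those labelled strain CTD5A. Each array compared cDNA of cells exposed to 0.7 M NaCl for 30 min with cDNA of the unstressed culture of the same strain, and each feature was given as the log2 of the treated over the unstressed signal. Cells of every strain lacked the endogenous RPB1 gene (listed in the annotation as RPO21, YDL140C), which encodes the largest subunit of RNA polymerase II, and carried RPB1 on a plasmid. In the S5A strain the carboxyl-terminal domain (CTD) encoded by that plasmid opened with a block of repeats in which Ser5 was replaced by alanine and ended with repeats of wild-type sequence. The wild-type strain, labelled CTD14, had wild-type repeats throughout, and the S2A strain, labelled CTD2A, had a block of repeats with alanine at Ser2. All strains grew in YPD medium at 30 °C, and each was profiled on 3 arrays. Part of the S5A tail could still carry phosphate on Ser5, since a tail with the substitution in every repeat does not support growth. The wild-type and mutant tails also differed in their number of repeats. The paper reports, without showing the data, that the salt response of expression was alike with control plasmids that differed in their number of wild-type repeats.

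The CTD is a tail of tandem heptad repeats whose serines are phosphorylated and dephosphorylated as the polymerase moves along a gene. Ser5 is phosphorylated near the promoter, mainly by Kin28 in the general factor TFIIH, and that mark is read by the capping enzyme and by the Nrd1 complex, which ends short non-coding transcripts. When yeast meets high salt, the kinase Hog1 and the transcription factors Msn2 and Msn4 induce genes for glycerol, protective sugars and antioxidants, and cells repress the genes that build ribosomes and translate messages.

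The 3 S5A arrays correlated with each other at 0.913 to 0.955 over the 5645 features that had a value on all 9 arrays, which are the features tested here out of 6868. They lacked values for 166 to 943 features, the highest number being on replicate 1. Values on the S5A arrays had an SD of 0.886 to 0.916, against 1.073 to 1.22 on the wild-type arrays. The median SD of a feature was 0.169 over the S5A arrays and 0.221 over the wild-type arrays. The labels number the replicates but do not say whether they came from separate cultures, so the p-values measure the spread between these arrays, which may be technical. The salt-treated sample had the same dye on each array, so a dye effect cannot be told apart from the response of one strain.

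The message for Rpb1 itself fell in S5A. RPO21 read -1.55, -1.35 and -1.24 on the 3 S5A arrays and had a mean of -0.63 in wild-type and -0.95 in S2A. All 3 S5A values lay below 0, and the array ratio does not show which form of the gene a strain carried.

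Salt still changed most of the transcriptome in S5A. In limma, 3561 of 5645 features passed an adjusted p of 0.05 (63.1%), with 1633 induced (28.9%) and 1928 repressed (34.2%). The sign was the same on each of the 3 arrays for 3550 of them. The calls and the fold changes are relative to the centre of each array, and the split between induced and repressed depended on it. Centring each array on its mode raised the median of all features by 0.16 and gave 1913 induced and 1286 repressed, so that the induced share of the calls went from 45.9% to 59.8%. Of the called features, 517 were induced and 468 repressed at least 2-fold. At a log2 change of 3 or more there were 49 induced features and 2 repressed ones. In wild-type the same counts were 733 and 769 at 2-fold, and 78 and 35 at a log2 change of 3. Leaving out one S5A array at a time kept 2863 to 2935 of the 3561 calls, and 957 of the 985 calls past 2-fold were kept in each of these 3 fits.

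**Figure D1:**
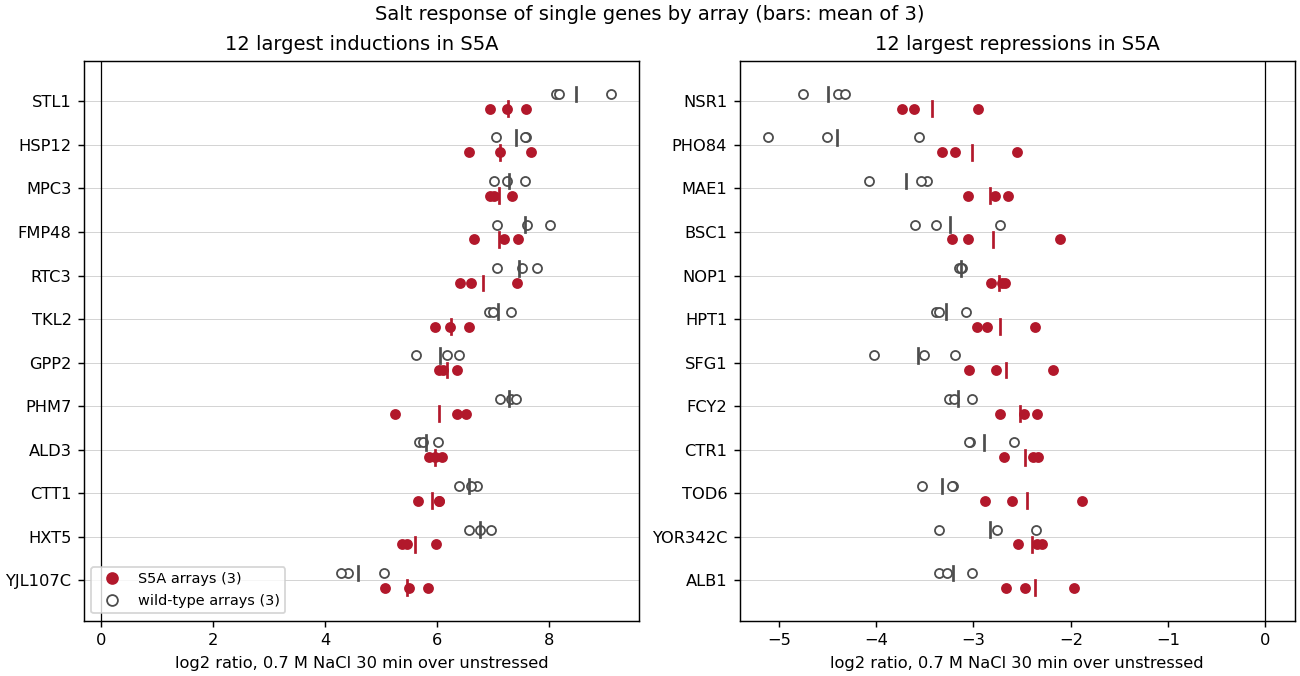
Log2 ratio of salt-treated over unstressed culture (x axis) for the 12 called features with the highest and the 12 with the lowest S5A mean. Filled points are the 3 S5A arrays, open points the 3 wild-type arrays and vertical bars the means. Inductions reached a mean of 7.26 in S5A (STL1) and repressions reached -3.43 (NSR1).

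The largest induction was that of STL1. This gene for the glycerol symporter of the plasma membrane read 6.94, 7.24 and 7.58, a 153-fold mean induction (mean 7.26 ± 0.32, SD, n = 3, limma adjusted p = 3.22e-08). HSP12, a small membrane-protecting protein, read 7.68, 6.56 and 7.13. MPC3, a subunit of the mitochondrial pyruvate carrier, read 7.33, 7.02 and 6.94. The lowest of these 9 values was 6.56. The S5A and wild-type arrays overlapped for HSP12 and MPC3 but not for STL1, whose wild-type values were 8.13 to 9.11. The mitochondrial protein FMP48 (mean 7.10), RTC3 (6.82), the transketolase TKL2 (6.25), the glycerol-phosphatase GPP2 (6.17) and PHM7 (6.04) came next. ALD3, a cytosolic aldehyde dehydrogenase, read 5.86, 5.97 and 6.08, with a spread (SD 0.113) well below that of HSP12 (SD 0.558). The cytosolic catalase CTT1 (5.91), the hexose transporter HXT5 (5.61) and YJL107C (5.47) completed the first 12. None of these 12 had a called difference from wild-type at an adjusted p of 0.025, with values from 0.0299 (PHM7) to 0.828 (GPP2). With the replicate number as a block, which pairs the arrays, the PHM7 difference of -1.24 was called (adjusted p = 0.00864).

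The largest repression was that of NSR1. This gene for a nucleolin-like protein, needed for the processing of ribosomal RNA, read -2.95, -3.73 and -3.61, a 10.8-fold repression (mean -3.43 ± 0.422, SD, n = 3, limma adjusted p = 1.56e-07). PHO84, the high-affinity phosphate transporter, read -2.55, -3.19 and -3.32. NOP1, the methyltransferase of box C/D small nucleolar ribonucleoproteins, read -2.82, -2.68 and -2.71. Replicate 1 gave the value closest to 0 for NSR1 and PHO84 but not for NOP1. The malic enzyme MAE1 (-2.83), BSC1 (-2.80), the purine salvage enzyme HPT1 (-2.73) and the transcription factor SFG1 (-2.67) also fell more than 6-fold. The list ended with the purine and cytosine permease FCY2 (-2.52), the copper transporter CTR1 (-2.47), the repressor TOD6 (-2.45), YOR342C (-2.40) and ALB1 (-2.37), a shuttling factor of the large ribosomal subunit.

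**Figure D2:**
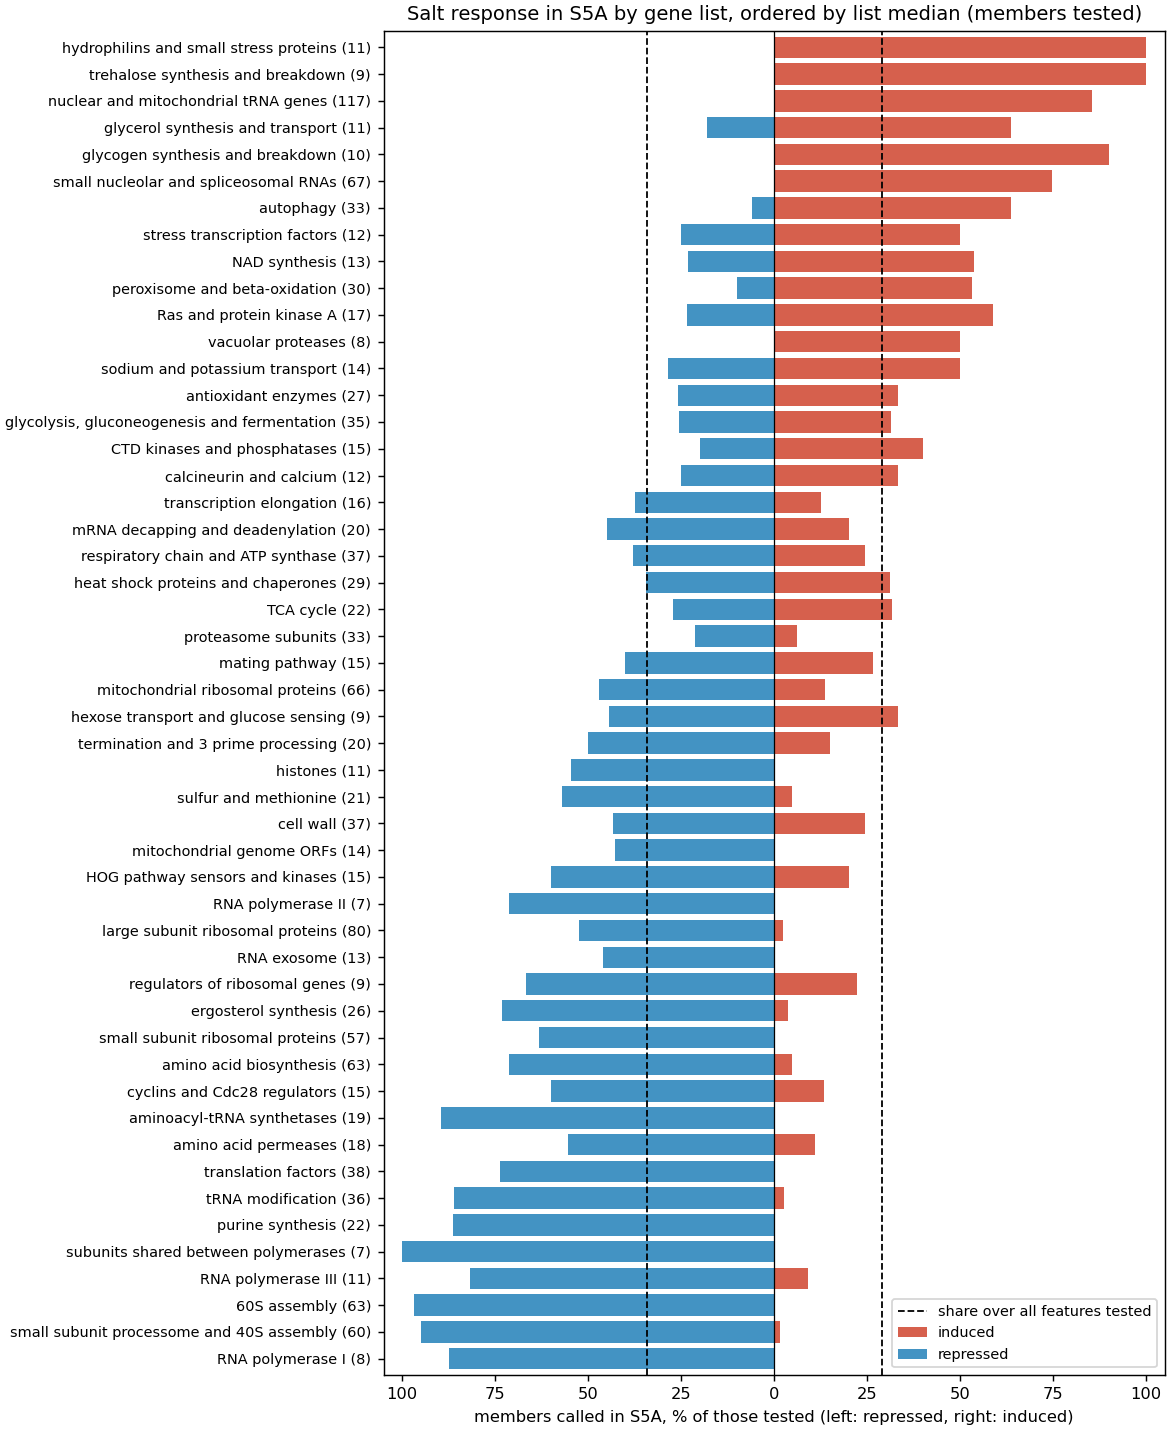
Share of the tested members of each gene list that salt induced (right) or repressed (left) in S5A, in percent, with lists ordered by their median and the number tested in brackets. Dashed lines mark the shares over all features tested, 28.9% induced and 34.2% repressed. Lists at the top were called almost only upward and lists at the bottom almost only downward.

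Glycerol is the osmolyte that yeast makes against salt. Of 11 tested genes of glycerol synthesis and transport (13 were on the arrays), 7 were induced and 2 repressed in S5A, with a median of 1.08 beside -0.07 over all features. GPD1, the glycerol-3-phosphate dehydrogenase that starts the pathway, read 4.54, 4.27 and 4.80. GPP2, which removes the phosphate, read 6.35, 6.11 and 6.03, and its S5A values overlapped those of wild-type (5.62 to 6.39). Genes for the use and the loss of glycerol moved less or fell: the channel FPS1, through which glycerol leaves the cell, read -0.74, -0.78 and -0.60, and the glycerol kinase GUT1 read -0.47, -0.44 and -0.43. The GUT1 call was lost with arrays centred on their mode (adjusted p = 0.0722).

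The genes that sense and carry the osmotic signal were themselves more often repressed than induced. Among 15 genes of the Hog1 pathway, 3 rose and 9 fell (median -0.39), and in wild-type 4 rose and 8 fell (median -0.42). Beside the counts in S5A stand 28.9% induced and 34.2% repressed over all features tested. SSK1, the response regulator of the Sln1 branch, rose (1.19, 0.69 and 0.65), and so did the MAP kinase kinase kinase STE11 (0.29, 0.38 and 0.58). The osmosensor mucin MSB2 fell (-1.14, -1.04 and -0.72). The tyrosine phosphatases that switch Hog1 off, PTP3 (0.73, 1.05 and 0.83) and PTP2 (0.65, 0.91 and 0.58), rose, whereas the serine-threonine phosphatase PTC2 fell on all arrays (-2.20, -1.98 and -2.20). Of 12 stress transcription factors 6 rose and 3 fell. CIN5, a leucine zipper factor of salt tolerance, rose by a mean of 2.42, and MSN2 read 1.56, 1.37 and 1.34, while its paralog MSN4 read -0.27, -0.84 and -1.04. In the Ras and protein kinase A pathway 10 of 17 genes rose and 4 fell, with the growth-restraining kinase YAK1 at 1.75 and the GTPase RAS1 at -1.89.

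Nearly all genes for reserve sugars rose. All 9 tested genes of trehalose synthesis and breakdown were called induced in S5A (median 1.42), 6 of them at least 2-fold, and 9 of 10 glycogen genes were (median 1.03). TPS2, the trehalose phosphatase, read 3.28, 3.32 and 3.45. PGM2, the phosphoglucomutase that feeds both sugars, read 2.46, 2.83 and 2.87. TSL1, a regulatory subunit of the synthase complex, read 2.37, 2.54 and 2.77. The SD over the 3 arrays was 0.09 to 0.226 for these genes. In the glycogen list PIG2, a subunit that targets a phosphatase to glycogen synthase, read 2.42, 3.43 and 2.58, and GLG1, the protein that primes glycogen, read 1.94, 1.99 and 2.04. GDB1, the debranching enzyme, was near the lower end (0.15, 0.73 and 0.66) and was not called without S5A replicate 2 (adjusted p = 0.0762) or S5A replicate 3 (0.0629).

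All 11 tested hydrophilins and small stress proteins rose at least 2-fold (median 4.30, and 4.37 in wild-type), from MOH1 (1.46) to HSP12 (7.12). DDR2, a multi-stress protein of unknown function, read 5.35, 5.23 and 5.37, and MSC1 read 5.08, 4.97 and 4.72. Heat shock proteins and chaperones had 9 of 29 induced and 10 repressed, close to the shares over all features (28.9% and 34.2%), with a median of -0.10, or 0.06 with arrays centred on their mode. HSP42, a small heat shock protein that sequesters misfolded proteins, read 2.61, 2.25 and 2.36, and HSP26 read 2.89, 2.70 and 1.49. YDJ1, the main Hsp40 partner of cytosolic Hsp70, fell (-1.18, -1.64 and -1.91). Of 27 antioxidant enzymes 9 rose and 7 fell, also near the shares over all features. The rises were led by CTT1 and by the mitochondrial peroxiredoxin PRX1 (2.32, 2.23 and 2.53). The falls were led by the cytosolic peroxiredoxin AHP1 (-1.44, -1.14 and -1.46) and the thioredoxin reductase TRR1 (-0.80, -0.87 and -1.02).

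Genes of sodium and potassium transport changed in both directions. ENA1, ENA2 and ENA5, the sodium pump genes of one tandem array, had means of 2.01, 1.94 and 1.91, but their sequences are nearly identical, so the arrays cannot tell the copies apart. TRK1, the main potassium importer, fell (-0.99, -0.94 and -0.59), as did the sodium-proton antiporter NHA1 (-0.67, -0.79 and -0.50). In all, 7 of 14 genes of sodium and potassium transport rose and 4 fell, and none had a called difference from wild-type (limma, adjusted p at or below 0.025). In the calcineurin and calcium list 4 of 12 rose and 3 fell, near the 28.9% and 34.2% over all features. RCN2, an inhibitor of calcineurin, led that list with 2.24, 2.48 and 2.31.

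In glycolysis, gluconeogenesis and fermentation 11 of 35 tested genes rose and 9 fell (median 0.09), near the 28.9% and 34.2% over all features. ALD3 and ALD2 (mean 4.37), neighbouring genes for similar cytosolic aldehyde dehydrogenases, and the glucokinase GLK1 (1.90, 2.21 and 2.54) rose most, whereas the mitochondrial aldehyde dehydrogenase ALD5 fell (-1.36, -1.77 and -1.90). HXT1, the low-affinity glucose transporter, read 2.68, 2.68 and 3.05, and HXT2, a high-affinity one, read -0.76, -1.16 and -1.23. Only 9 of 19 hexose transport genes had complete values, since the others had no value on S5A replicate 1. Of 37 genes of the respiratory chain and ATP synthase 9 were induced and 14 repressed (median -0.10), also near the shares over all features. With arrays centred on their mode 12 were induced and 4 repressed (median 0.06). The 2 isoforms of cytochrome c moved in opposite directions: CYC7 rose (1.17, 2.14 and 1.89) and CYC1 fell (-1.67, -1.92 and -1.73). Peroxisomal genes leaned upward, with 16 of 30 induced and 3 repressed (median 0.44). In the TCA cycle 7 of 22 genes rose and 6 fell, again near the shares over all features. MDH2, the cytosolic malate dehydrogenase, read 1.48, 1.34 and 1.72, and the aconitase ACO1 read -1.36, -1.26 and -1.25.

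The vacuole and the proteasome, the main routes of protein breakdown, gave unlike counts. Autophagy genes were mostly induced, 21 of 33 with 2 repressed (median 0.57). ATG34, a receptor for the delivery of vacuolar hydrolases, read 2.63, 4.41 and 3.92, and ATG14, a subunit of the autophagy lipid kinase, read 1.64, 1.88 and 1.94. Of 8 vacuolar proteases 4 rose and none fell (median 0.33). In the proteasome, by contrast, 2 of 33 subunit genes rose and 7 fell in S5A (median -0.14), against 12 and 0 in wild-type (median 0.21), and 1 of the 33 had a called difference. With arrays centred on their mode the S5A median was 0.01, with 2 subunit genes induced and 1 repressed. RPN9 read 0.44, 0.51 and 0.61, and PRE1 read -0.77, -0.71 and -0.69.

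Nearly all factors that assemble ribosomes were repressed. Of 60 tested genes of the small subunit processome and 40S assembly 57 were repressed and 1 was induced (median -1.24), and of 63 genes of 60S assembly 61 were repressed and none was induced (median -1.13). At least 2-fold repression was seen for 45 and 42 of them. RRP12, an export factor of both subunits, read -1.92, -2.28 and -2.37. RLP24, a placeholder protein of the nascent 60S particle, read -1.80, -2.68 and -2.07, and ARX1, a nuclear export factor, read -1.93, -2.34 and -2.67. Replicate 1 gave the smallest repression for these genes and for the lists as a whole, with list medians of -0.98, -1.40 and -1.39 for the 40S list and -0.83, -1.40 and -1.32 for the 60S list. The lone induced member was RRP7 (0.32, 0.23 and 0.39), a component of the early preribosome. It was not called once any one of the S5A arrays was left out (adjusted p = 0.05 to 0.11).

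RNA polymerases I and III, which make ribosomal RNA and tRNA, fell with them. Of 8 polymerase I genes 7 were repressed (median -1.44), among them RPA190, its largest subunit (-1.56, -2.00 and -2.09), and RPA43 (-1.82, -2.20 and -2.30). Of 11 polymerase III genes 9 were repressed, led by RPC31 (-1.58, -2.13 and -1.78), and 1 rose. The gene that rose was MAF1, the repressor of polymerase III, with 0.81, 0.81 and 0.82. All 7 subunits shared between polymerases were repressed. Among regulators of ribosomal genes, SFP1, an activator, rose (0.71, 0.86 and 0.65), and the repressors DOT6 (-1.16, -0.93 and -1.17) and TOD6 (-1.88, -2.60 and -2.88), which bind the promoters of ribosome assembly genes, fell.

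Ribosomal protein genes fell less and less uniformly than the assembly factors. In the small subunit 36 of 57 were repressed and none was induced (median -0.51), and in the large subunit 42 of 80 were repressed and 2 induced (median -0.40). The medians in wild-type were -1.03 and -0.95, with 55 and 74 repressed. RPS26B read -0.98, -1.24 and -1.51, and RPL31B read -1.31, -1.75 and -1.36. The 2 induced members were RPL41B (0.62, 0.74 and 0.98) and RPL10 (0.78, 0.33 and 0.44), of which RPL10 was not called without S5A replicate 1 (adjusted p = 0.141) or S5A replicate 3 (0.0589). Most of these genes have a near-identical paralog, so a value may hold signal from both copies.

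**Figure D3:**
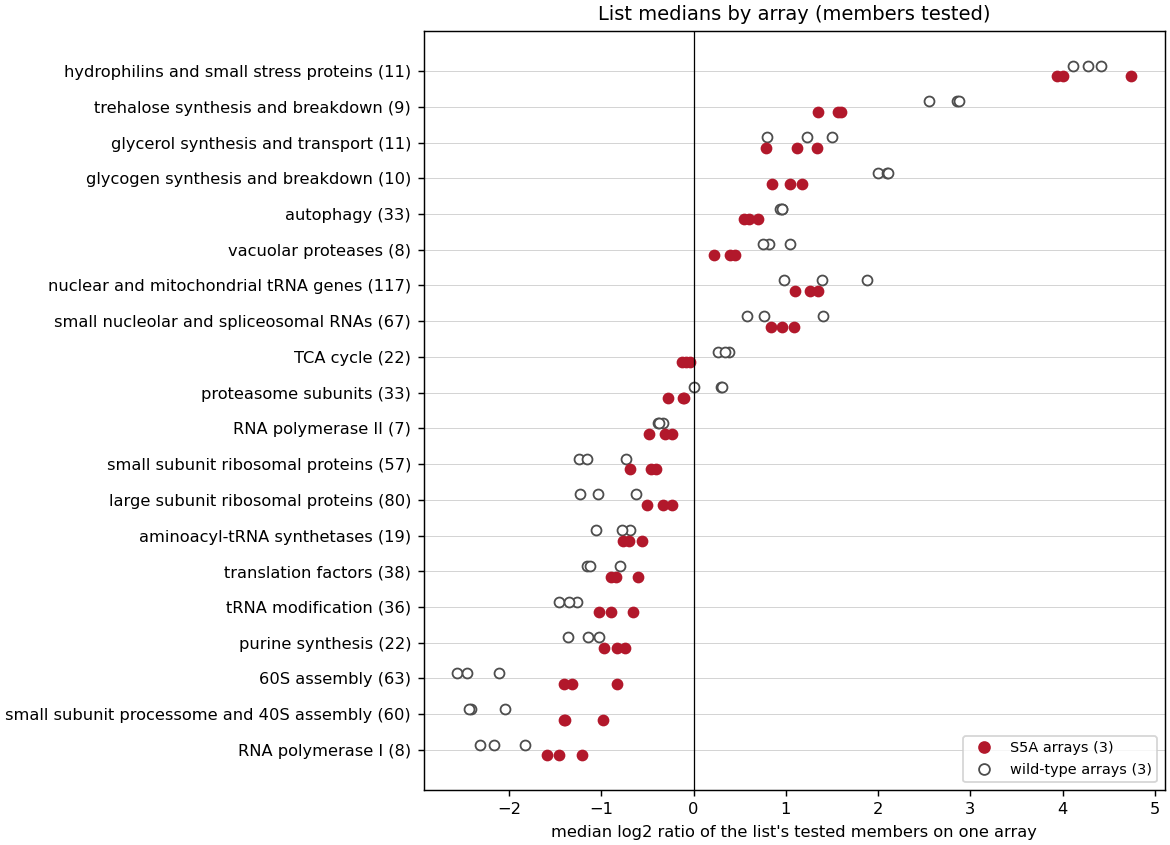
Median log2 ratio of the tested members of 20 lists on each array (x axis), with filled points for the 3 S5A arrays and open points for the 3 wild-type arrays. For both ribosome assembly lists all S5A points lie between -0.83 and -1.40 and all wild-type points between -2.04 and -2.56, whereas the points of the hydrophilin list overlap.

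Translation factors, aminoacyl-tRNA synthetases and tRNA modification genes were mostly repressed. Of 38 translation factors 28 fell and none rose (median -0.79), with TIF4631, a scaffold of the cap-binding complex, at -1.19, -1.71 and -1.59 and the initiation factor subunit SUI2 at -1.46, -1.43 and -1.36. Of 19 aminoacyl-tRNA synthetases 17 fell (median -0.69), with FRS2, a subunit of the phenylalanine enzyme, at -1.19, -1.30 and -1.53. No member of these 2 lists had a called difference from wild-type in limma, where the medians were -1.03 and -0.86. Of 36 tRNA modification genes 31 fell and 1 rose (median -0.81). TRM11, a guanosine methyltransferase subunit, was the lowest at -1.49, -1.99 and -1.94.

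Genes of amino acid, purine, sulfur and ergosterol synthesis fell more often than they rose, and those of NAD synthesis did not. In amino acid synthesis 45 of 63 genes fell and 3 rose (median -0.58), with HIS1 (-1.80, -1.91 and -2.03) and ILV5 (-1.82, -1.89 and -1.79) lowest. ARO9, a transaminase of aromatic amino acid breakdown, rose instead (3.42, 3.03 and 3.08). Of 18 amino acid permeases 10 fell and 2 rose, PUT4, the proline permease, reaching 3.43, 4.30 and 3.70. Purine synthesis fell in 19 of 22 genes, with ADE4, the first enzyme of the pathway, at -1.88, -1.80 and -1.85. Sulfur and methionine genes fell in 12 of 21, and SAM1, which makes S-adenosylmethionine, read -1.38, -1.21 and -1.37, while MET13, a methylenetetrahydrofolate reductase, rose (1.72, 1.22 and 1.71). Ergosterol synthesis fell in 19 of 26 genes, ERG11 among them (-1.22, -1.15 and -1.05), and NAD synthesis leaned upward with 7 of 13 induced and 3 repressed.

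The genes that modify the CTD, elongate transcripts and end them changed in both directions. Over all features tested 28.9% were induced and 34.2% repressed. In polymerase II itself 5 of 7 subunit genes were repressed, RPB2, the second-largest subunit, with -1.09, -1.09 and -1.11, and RPB4 was near 0 (-0.08, -0.23 and 0.29). Of 15 CTD kinases and phosphatases 6 rose and 3 fell. CCL1, the cyclin partner of the Ser5 kinase Kin28, rose (0.86, 0.88 and 1.20). ESS1, a prolyl isomerase that acts on the CTD, fell (-1.58, -1.46 and -1.49), and FCP1, a CTD phosphatase, fell too (-1.05, -0.89 and -1.0). Of these 15 genes and of 16 elongation genes (2 induced and 6 repressed) none had a called difference from wild-type in limma. The repressed share of the elongation genes was near that over all features. The elongation factor SPT5 read -1.19, -1.17 and -1.03, and SUB1, a coactivator, read 1.36, 1.04 and 1.49.

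On the values as deposited, termination and RNA decay genes were repressed more often than induced. So were all features, with 34.2% repressed and 28.9% induced. Of 20 genes of termination and 3 prime processing 3 rose and 10 fell (median -0.27, and 0.03 in wild-type), and with arrays centred on their mode 6 and 7 did. PTI1, a subunit of the cleavage and polyadenylation factor, read -1.90, -1.33 and -1.18. All 3 named members of the Nrd1 complex were repressed, NRD1 with -0.78, -0.62 and -0.23, NAB3 with -0.83, -0.90 and -0.49, and the helicase SEN1 with -0.92, -0.70 and -0.62. The poly(A) polymerase PAP1 rose (0.53, 0.48 and 0.63). Of 20 decapping and deadenylation genes 4 rose and 9 fell (median -0.09), or 6 and 5 with arrays centred on their mode (median 0.06). The 9 included PAT1, an activator of decapping (-1.49, -1.12 and -1.10), and the exonuclease XRN1 (-1.07, -0.98 and -0.88). Of 13 exosome genes 6 fell and none rose, with the helicase MTR4 at -0.91, -1.71 and -1.82.

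Small structural RNAs had higher ratios after salt. Of 117 tested tRNA features (138 were on the arrays) 100 were called induced and none repressed, with a median of 1.22 and array medians of 1.35, 1.10 and 1.26. Copies of one tRNA are nearly identical in sequence, so the features are not separate measurements. Of 67 small nucleolar and spliceosomal RNAs 50 were called induced and none repressed (median 0.95). snR52, a box C/D RNA, read 1.44, 1.83 and 1.28, and LSR1, the U2 spliceosomal RNA, read -0.43, 0.10 and 0.15. The wild-type medians of the 2 classes were 1.42 and 0.87, and those of S2A were 0.51 and 0.24. Polymerase III makes tRNA, and 9 of its 11 tested genes were called repressed on these arrays. Of 14 tested reading frames of the mitochondrial genome 6 fell and none rose.

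Cell division and wall genes changed in subsets. Over all features 28.9% were induced and 34.2% repressed. Of 15 cyclins and Cdc28 regulators 9 fell and 2 rose. FAR1, the Cdc28 inhibitor of the mating response, read -1.36, -2.52 and -1.99, the G1 cyclin CLN2 read -1.63, -1.75 and -1.28, and the mitotic cyclin CLB2 read -1.43, -1.53 and -1.17. Of 11 histone genes 6 fell and none rose. In the cell wall list 9 of 37 rose and 16 fell. CWP1, a mannoprotein of the wall, read 3.21, 3.39 and 3.56, and UTR2, which links chitin to glucan, read -1.98, -2.00 and -1.64. Mitochondrial ribosomal proteins fell in 31 of 66 genes and rose in 9 (median -0.26). In the mating pathway 4 of 15 rose and 6 fell, near the shares over all features.

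**Figure D4:**
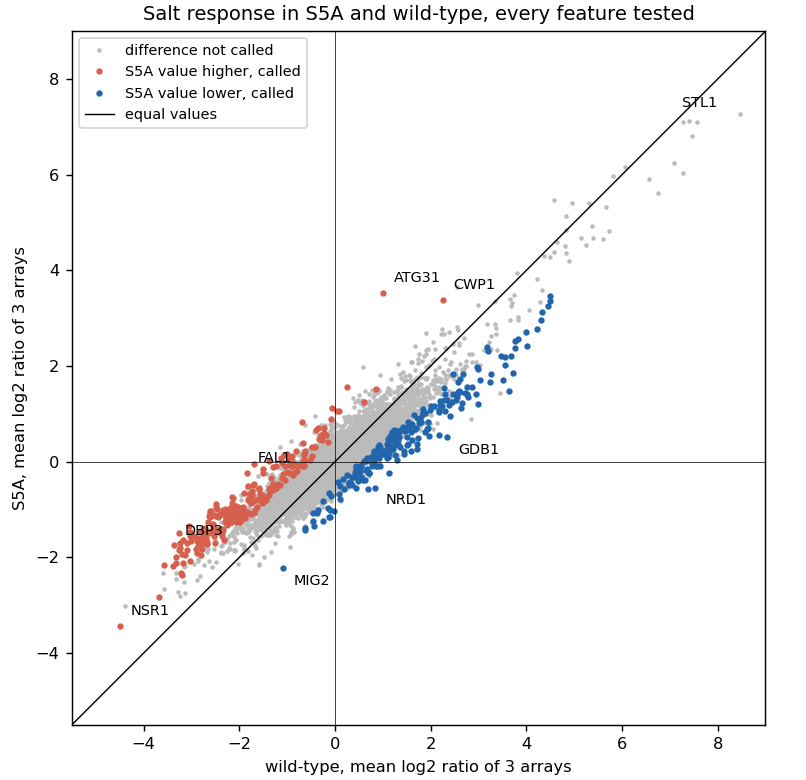
Mean log2 ratio of 3 S5A arrays (y axis) against that of 3 wild-type arrays (x axis) for the 5645 features tested. Coloured points are the 449 features with a called difference, red where the S5A value was higher and blue where it was lower, and the line marks equal values. Red points lie mostly among genes repressed in wild-type and blue points among induced ones, with ATG31 and MIG2 on the other side.

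To ask where the S5A response departed from the wild-type one, the difference between the 2 strain means was tested at an adjusted p of 0.025. It was called for 449 features (7.95%), 233 higher and 216 lower in S5A. Of 733 features induced at least 2-fold in wild-type, 679 were called induced in S5A, none was repressed and 54 were not called. Of 769 repressed at least 2-fold, 717 were called repressed, none was induced and 52 were not called. Where the wild-type response was at least 2-fold, the called differences were lower in S5A for 138 induced genes and higher for 1. For repressed genes the repression was weaker for 182 and stronger for 1. Choosing genes by their wild-type value favours a weaker response in S5A, so these counts were partly set by the choice. For features at least 2-fold in S5A, a choice that favours the opposite, 62 induced ones were lower and 8 higher. Repression was weaker for 112 of those repressed and stronger for 13. For the genes chosen by their wild-type value, the balance moved with the scale of the arrays. Scaled to one median absolute deviation, induced genes had 45 lower and 16 higher values and repressed genes 35 weaker and 4 stronger, and after quantile normalization the same counts were 36, 9, 15 and 9. The number of calls rested on single arrays and on the scale of the arrays. It was 17, 195 and 154 when S5A replicate 1, 2 or 3 was left out in turn, and 460, 194 and 84 when wild-type replicate 1, 2 or 3 was. Each of the 449 differences kept its sign in all of these fits, which was nearly fixed in advance. The 449 were chosen as called in the full fit, which shares most arrays with these fits. With the arrays scaled to one median absolute deviation the number of calls was 221, of which 175 were among the 449, and after quantile normalization 182 (140 among the 449). With the replicate number as a block, under which wild-type and S5A arrays are paired, it was 762 (438 among the 449). After quantile normalization 442 of the 449 differences kept their sign.

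Trehalose genes had 7 of 9 called differences, all lower in S5A, glycogen genes 3 of 10 and glycerol genes 3 of 11. The largest was GDB1, with S5A values of 0.15 to 0.73 and a wild-type mean of 2.34 (difference -1.83, adjusted p = 0.00479). The differences for TPS2, PGM2, TSL1, ATH1 and TPS3 were -1.15, -1.27, -1.27, -1.34 and -0.99. For none of these 6 genes did the S5A arrays overlap those of wild-type, which choosing them by a called difference made likely. GLK1 differed by -1.46, and GUT2, the mitochondrial glycerol-3-phosphate dehydrogenase, by -1.16. GUT1 fell in S5A and had a wild-type mean of 0.29 (difference -0.73). Without S5A replicate 1 only GDB1 of these 9 genes remained called, the others having adjusted p-values up to 0.0438. After scaling to one median absolute deviation 5 of the 9 remained called, and TPS2 was not (adjusted p = 0.223).

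**Figure D5:**
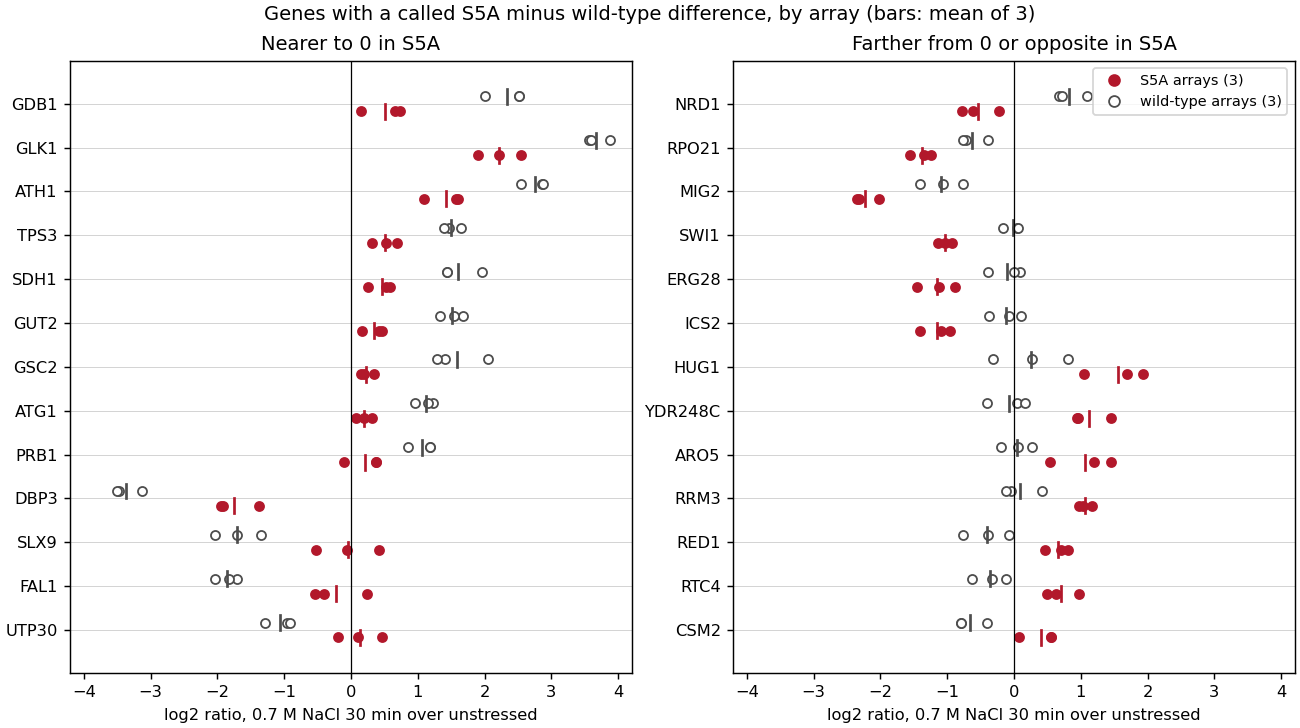
Log2 ratio of salt-treated over unstressed culture (x axis) on each array for genes with a called difference between S5A and wild-type. Filled points are the 3 S5A arrays, open points the 3 wild-type arrays and bars the means. The left panel holds genes closer to 0 in S5A, such as ATG1 with means of 0.19 and 1.12, and the right panel genes farther from 0 or opposite in sign, such as NRD1 with -0.54 and 0.83.

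Some wild-type responses were not called at all in S5A. There were 37 features that changed at least 2-fold in wild-type, were not called in S5A and had a called difference, 21 of them induced and 16 repressed in wild-type. ATG1, SLX9 and FAL1 were picked from the 37 after their values were seen. Among the induced ones were ATG1, the kinase that starts autophagy (S5A mean 0.19, wild-type 1.12), PRB1, a vacuolar protease (0.21 and 1.07), and GSC2, a glucan synthase subunit made under stress (0.23 and 1.58). Among the repressed ones were SLX9 (-0.05 and -1.70), UTP30 (0.13 and -1.06) and FAL1 (-0.23 and -1.85), all linked to 40S assembly, the ribosomal protein genes RPS24A (-0.09 and -1.23) and RPL22A (0.07 and -1.12), and SSK22, a kinase of the Hog1 pathway (-0.11 and -1.29). Their S5A and wild-type arrays did not overlap, which choosing them by a called difference made likely. The lack of a call in S5A held for SLX9, UTP30, RPS24A, RPL22A and SSK22 in every alternative fit, whereas the other 4 were called in some. With Storey's q-value ATG1, PRB1, GSC2 and FAL1 all were (q = 0.0224, 0.0282, 0.0447 and 0.0388). ATG1 was also called with median centring, mode centring and array weights, and GSC2 after quantile normalization. PRB1 and FAL1 were also called with array weights and without S5A replicate 1 (adjusted p = 0.0319 and 0.0173), and PRB1 with mode centring. Without S5A replicate 1 the difference remained called for FAL1 but not for the others, with adjusted p-values up to 0.0888.

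Ribosome production held more of the called differences than any other function listed here. In the 40S assembly list 40 of 60 and in the 60S list 42 of 63 were called, all with a higher value in S5A than in wild-type. So were 3 of 8 polymerase I genes, 3 of 11 polymerase III genes and 8 of 36 tRNA modification genes. DBP3, a helicase of ribosomal RNA processing, read -1.38, -1.92 and -1.94 in S5A with a wild-type mean of -3.37 (difference 1.62, adjusted p = 0.00479), and it was called with any array left out. The differences for RPA43, RPC25, TRM11 and NSR1 were 1.22, 0.99, 1.44 and 1.06, and RRP7, induced in S5A, had a wild-type mean of -0.41 (difference 0.72). Among ribosomal proteins the share called was 7 of 57 in the small subunit and 2 of 80 in the large one, beside 7.95% over all features. These counts moved with the scale of the arrays. Scaled to one median absolute deviation, 9 genes of the 40S list and 11 of the 60S list were called, after quantile normalization 4 and 4, and without S5A replicate 1, 3 and 8. After scaling the NSR1 difference was 0.22 (adjusted p = 0.596).

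Other called differences were spread over several functions. In the TCA cycle 8 of 22 were called (0 without S5A replicate 1, and 2 without S5A replicate 3, wild-type replicate 2 or wild-type replicate 3), with SDH1, the succinate dehydrogenase flavoprotein, at 0.46 in S5A and 1.60 in wild-type (difference -1.14). In autophagy 8 of 33 were lower and 1 was higher, and 1 of the 33 was called without S5A replicate 1. ATG22, a vacuolar membrane protein, fell in S5A (-0.51, -0.50 and -0.22) and had a wild-type mean of 0.48 (difference -0.89). The fall of ATG22 was not called with arrays centred on their mode (adjusted p = 0.16) or without S5A replicate 1 (0.053) or S5A replicate 2 (0.0568). The vacuolar aminopeptidase APE1 differed by -0.79. HSP42 differed by -1.61 and the oxidative stress factor YAP1 by -0.74. YAP1 itself read -0.26, -0.32 and -0.19 in S5A, a call lost in 11 alternative fits (adjusted p up to 0.582). Without S5A replicate 1 none of these 5 differences remained called, with adjusted p-values up to 0.0443.

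In a small set of genes the S5A response was the larger one. Among features induced at least 2-fold in S5A, the difference was higher for 8 and lower for 62, and among those repressed at least 2-fold it was stronger for 13 and weaker for 112. ATG31, needed to form autophagosomes, read 4.47, 3.0 and 3.11 against a wild-type mean of 1.0 (difference 2.53), and remained called with any array left out. CWP1 differed by 1.14 and MDH2 by 0.66. Both lost their call without S5A replicate 1 (adjusted p = 0.0498 and 0.0642). MIG2, a repressor of glucose-repressed genes, read -2.35, -2.32 and -2.02 with a wild-type mean of -1.09 (difference -1.14), and SWI1, a subunit of the SWI/SNF chromatin remodeller, read -1.14, -0.93 and -1.04 with a wild-type mean of -0.02 (difference -1.02). RRM3, a DNA helicase, rose in S5A (difference 0.97), and the RPO21 difference was -0.75. Without S5A replicate 1 the adjusted p was 0.031 for MIG2, 0.0278 for SWI1, 0.0346 for RRM3 and 0.0536 for RPO21. MIG2, SWI1 and RRM3 were picked after their values were seen. S5A minus S2A, tested the same way, was called for these genes but not for RPO21 (limma adjusted p = 0.0915).

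A response called in S5A and not in wild-type, with a called difference, was led by HUG1, a protein of the DNA damage checkpoint (1.93, 1.69 and 1.05, difference 1.30), and YDR248C (1.45, 0.96 and 0.94, difference 1.18). They were followed by the ergosterol scaffold protein ERG28 (-1.45, -1.12 and -0.88, difference -1.05), ICS2 (-1.40, -1.10 and -0.96, difference -1.04) and ARO5 (1.45, 0.54 and 1.20, difference 1.02). For all 5 the arrays of both strains were apart, and the highest wild-type value of HUG1 was 0.81. Opposite calls in the 2 strains numbered 28, with 10 features induced in S5A and repressed in wild-type and 18 the other way round. Among these was NRD1, with a mean of -0.54 in S5A and 0.83 in wild-type (difference -1.38, adjusted p = 0.00555). The meiotic axis protein RED1 (0.66 and -0.40), RTC4 (0.70 and -0.36) and the recombination protein CSM2 (0.40 and -0.66) differed the other way, although the rise of CSM2 was not called without S5A replicate 1 (adjusted p = 0.13) or S5A replicate 2 (0.137). The differences of these 9 genes and of RPO21, MIG2, SWI1 and RRM3 remained called after scaling to one median absolute deviation. Without S5A replicate 1 only NRD1 of these 13 remained called, and adjusted p-values reached 0.0913.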

How the data were processed

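The deposited values are log2 ratios of the salt-treated to the unstressed channel of 2-colour whole-genome tiled Nimblegen arrays, one column per array, normalized by the authors, with 1 value per feature and a median near 0. The software used for normalization is not given in the sources used here. Of 6868 features, 5984 matched a locus tag of the RefSeq annotation, which gave the symbols, and the 5645 with a value on all 9 arrays were tested. Gene lists and members were chosen with earlier results of these data known.

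The values were analysed without further scaling in limma 3.58.1 (R 4.3.3), with one mean per strain (3 arrays each) in a single fit and moderated variances. A response was called at a Benjamini-Hochberg adjusted p below 0.05 and a difference from wild-type at or below 0.025, two-sided over all features tested. The procedure was tested on simulated data. The number of arrays limits the precision.

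Same-numbered S5A and wild-type arrays deviated from their strain means together (correlations of 0.231, 0.177 and 0.166 over features), so the replicate numbers were taken to pair them in an alternative fit with the replicate as a block. Other alternatives were median and mode centring, quantile normalization, scaling to one median absolute deviation, fewer arrays or other features in the fit, other variance estimates, array weights, Storey's q-value, exchanged thresholds and leaving out each array.

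The 51 lists and classes are described by counts and medians, without a test. Genes were named by rule. These were the 12 largest changes each way among called features with one sign on 3 arrays; per list up to 3 called members with the largest changes, up to 3 against the majority, the member with the highest adjusted p and the largest called difference; up to 5 features called in S5A and not in wild-type; up to 6 opposite calls; and RPO21. Exceptions are stated beside their values. Sequences and promoter motifs were not analysed here, and some items are not reported here.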

Additional observations from a re-analysis of the deposited data

Results flagged for a closer look

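Each value in this part is the S5A minus wild-type difference in log2 response of a gene named in the text, and each was singled out because limma called that difference at an adjusted p of 0.025 or below. How far these calls rest on single arrays is given in the report, except for the genes for which it stands here.

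For the genes of trehalose, glycogen, glucose phosphorylation and glycerol use named, the S5A response was lower. The differences were -1.15 for TPS2, -1.27 for PGM2, -1.27 for TSL1, -1.34 for ATH1, -0.99 for TPS3, -1.83 for GDB1, -1.46 for GLK1, -1.16 for GUT2 and -0.73 for GUT1. In the TCA cycle they were -1.14 for SDH1 and 0.66 for MDH2. The autophagy and vacuolar genes ATG1, ATG22, PRB1 and APE1 differed by -0.93, -0.89, -0.86 and -0.79, whereas ATG31 differed by 2.53. In the stress and signalling lists HSP42 differed by -1.61, YAP1 by -0.74 and SSK22 by 1.18, and the wall genes GSC2 and CWP1 by -1.35 and 1.14.

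For genes of ribosome production the S5A values were higher. The differences were 1.06 for NSR1, 1.62 for DBP3, 1.22 for RPA43, 0.99 for RPC25, 1.44 for TRM11, 1.18 for UTP30, 1.64 for SLX9, 1.62 for FAL1 and 0.72 for RRP7. The ribosomal protein genes RPS24A and RPL22A differed by 1.14 and 1.19. The differences of ALB1 (0.84), RRP12 (1.19), ARX1 (0.90), MAE1 (0.87) and FAR1 (1.18) depended on the array left out and on the scale of the arrays. Of the 9 fits that left out one array, they were called in 3, 4, 0, 4 and 2, in that order. None was called after scaling to one median absolute deviation, where adjusted p was 0.448, 0.105, 0.441, 0.64 and 0.204. After quantile normalization ALB1, ARX1 and MAE1 turned to -0.13, -0.12 and -0.19, and with the replicate block FAR1 was not called (adjusted p = 0.0315).

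Genes with a larger, an opposite or an S5A-only response differed by -1.38 (NRD1), -0.75 (RPO21), -1.14 (MIG2), -1.02 (SWI1), -1.05 (ERG28) and -1.04 (ICS2) on the lower side. On the higher side the differences were 1.30 (HUG1), 1.18 (YDR248C), 1.02 (ARO5), 0.97 (RRM3), 1.07 (RED1), 1.06 (RTC4) and 1.06 (CSM2).

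Of the 449 called differences, 16 were still called in each of the 9 fits that left out one array, and 10 of the 16 belonged to the 2 ribosome assembly lists. These 16 were picked after their values were seen. Besides GDB1, DBP3, FAL1, ATG31 and NRD1 they included IMP3, which helps pair the U3 small nucleolar RNA with the ribosomal RNA precursor. IMP3 read -1.49, -1.64 and -1.37 in S5A and -2.76, -2.63 and -2.70 in wild-type (difference 1.20). The others of 60S assembly were SSF1 (difference 1.58), RIX1 (1.43), DBP7 (1.35), NOC3 (1.18), NOC2 (1.54) and the GTPases NOG1 (1.41) and NOG2 (1.38). FMP23, a mitochondrial protein, read 0.88, 1.26 and 1.01 in S5A and 2.35, 2.23 and 2.32 in wild-type (difference -1.25). YHR138C differed by -1.19. YML108W read 0.04, -0.06 and -0.03 in S5A and -0.99, -1.08 and -1.24 in wild-type (difference 1.09). In the fit with arrays scaled to one median absolute deviation, 15 of the 16 were called, the exception being NOG1 (adjusted p = 0.0367).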

How the results depend on the processing

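Of the counts that describe the S5A response, one moved past 1.5 times its value, the features repressed at least 2-fold, from 468 to 710 after quantile normalization. The number called, 3561 in the full fit, lay between 2881 and 3744 when one array was left out. The number of S5A minus wild-type differences, 449, depended on nearly every choice. It was 280 with arrays centred on their mode, 182 after quantile normalization, 221 with arrays scaled to one median absolute deviation, 298 when the fit held only the S5A and wild-type arrays, 1284 with array weights, 789 with Storey's q-value and 798 at an adjusted p of 0.05. Leaving out one array gave 17 to 460. With the replicate number as a block it was 762. Among the genes named the block ended the difference call of FAR1 (adjusted p = 0.0315), added calls for PHM7, PHO84, RCN2, RPC31, RPL41B and MTR4, and changed no other call. Sign changes were counted only where the main or the alternative fit called the value. After quantile normalization the differences of NSR1 (-0.11), MAE1 (-0.19), ALB1 (-0.13) and ARX1 (-0.12), among the genes named, changed sign. MPC3, not called in the main test, did so after scaling, at 1.41. The cause was not tested. For the 162 genes named, 3522 of 3562 alternative values of the S5A response kept their side of the threshold. Of the others 27 lost the call and 13 gained it. No response called in the main or the alternative fit changed sign, and sign changes of uncalled ones were not counted. List medians stayed within the spread between arrays in 1033 of 1120 cases. Fits that changed only thresholds, variance estimates or the arrays of other strains could not move a median, so these cases include many fixed in advance. Of 51 medians, 30 moved with mode centring, 14 with scaling to one median absolute deviation and 13 after quantile normalization. The 3 arrays per strain, and the 166 to 943 features without a value on an S5A array, limit the precision.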
